A study of Arabidopsis thaliana with 11 samples.

Results

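Embryos of the accession Fe-1 were compared with embryos of Col-0, the accession from which the reference sequence comes, over every gene that the Arabidopsis ATH1 array reads. The comparison takes the 3 arrays titled Fe-1 and the 3 titled Col-0, 6 of the 11 arrays of the series, and these are the accessions with more than 1 array. Plants of both accessions (Freiburg-1 and Columbia-0 in the labels) were wild type, and whole embryos were dissected at the torpedo stage with syringe tips from maturing seeds kept in cold PBS. The study asked which genes differ between accessions that need ZWILLE/ARGONAUTE10 (ZLL) to keep shoot meristem stem cells and accessions that do not. Fe-1 is of the first kind and Col-0 of the second, so ZLL dependency and every other difference between these inbred lines cannot be told apart. The 5 other accessions, Ler-0, Nw-0, Bay-0, Ts-1 and Van-0, have 1 array each and serve here to place the genes that differed. They are called here by their titles, although another label of the Ler-0 array reads Ler-1 and another of the Ts-1 array reads Tossa del Mar-0.

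Accessions of Arabidopsis are inbred wild lines that differ at many sequence positions, and some genes are missing, broken or silenced in one line and intact in another. Immune receptor genes are known as the most variable of these, followed by genes for specialised metabolites such as glucosinolates. At the torpedo stage the embryo has cotyledons, an embryonic root and a shoot meristem, and its cells turn green before they fill with storage oil and protein. The array reads RNA with short probes designed on the Col-0 sequence, so a low Fe-1 signal from less RNA and one from RNA that matches the probes poorly cannot be told apart.

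The 6 arrays had closely similar distributions, with medians from 7.57 to 7.59 in Col-0 and from 7.63 to 7.71 in Fe-1 on the log2 scale of the deposited values, and the lower quartile of the 6 arrays lay between 4.92 and 5.03. Correlations across the 22746 probe sets, which are not independent of each other, were 0.996 to 0.997 between replicates and 0.978 to 0.984 between an Fe-1 and a Col-0 array. The tissue label was checked on marker genes. OLEO3, an oleosin of the seed oil body, lay between 13.11 and 13.20 on all 6 arrays, and the embryo regulator BBM between 9.12 and 9.58. AGL62 and IKU2, regulators of the endosperm, lay between 3.53 and 3.97, below the lower quartile of each array. BAN and DFR, enzymes of the seed coat pigment pathway, were low on the Col-0 arrays and high on some Fe-1 arrays, and their values are given below beside the genes that moved with them.

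319 of the 22746 probe sets (1.40%) passed an adjusted p under 0.05 and a 3-fold limit on the difference, 108 higher (0.475%) and 211 lower (0.928%) in Fe-1. In all 319 the 3 Fe-1 arrays lay apart from the 3 Col-0 arrays, as they did in 45.7% of all probe sets. Lower signals were also further away: 44 of the 211 decreases and 17 of the 108 increases exceeded 8-fold, and 26 and 4 exceeded 16-fold. In 92 of the 319 the mean of the lower accession was under 4.92, the lowest of the array quartiles. This held for 70 of the decreases and 22 of the increases. Without the fold limit 6655 probe sets (29.3%) passed the adjusted p, 4056 higher (17.8%) and 2599 lower (11.4%). The direction of these small differences depended on the scaling, because the median difference over all probe sets was 0.06 as deposited, 0.02 after renewed quantile normalisation and -0.03 after median centring, and the share of higher calls was 60.9%, 51.5% and 41.9% in turn. Among the 3-fold calls the corresponding shares were 33.9%, 29.9% and 25.3%. An ordinary t statistic called 3921 probe sets at any fold, and Fe-1 replicate 1 alone against Col-0, where all spread comes from the Col-0 arrays, called 2031, while the 3-fold counts were 297 and 326.

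**Figure D1:**
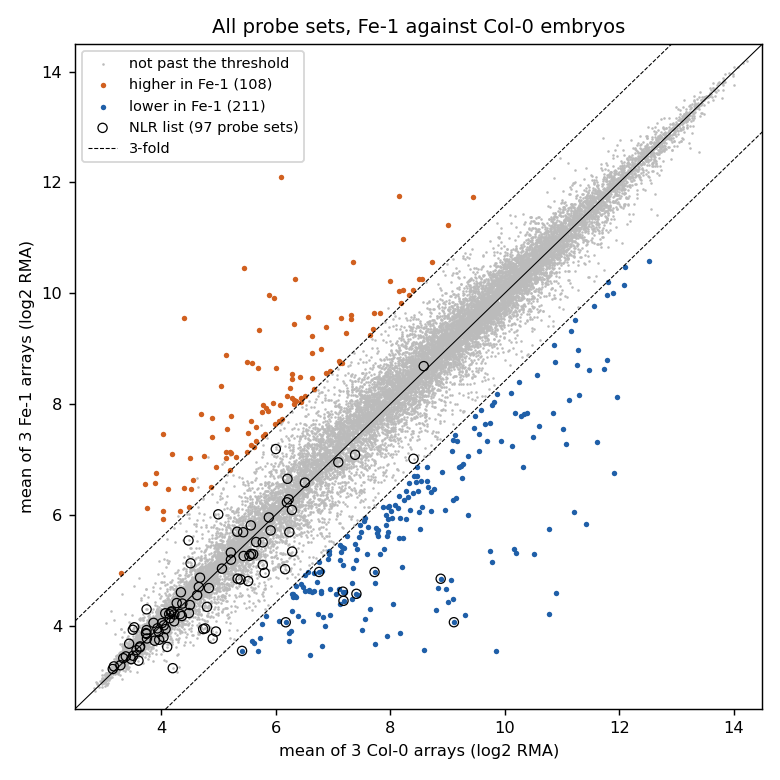
Mean of the 3 Fe-1 arrays against the mean of the 3 Col-0 arrays for each of the 22746 probe sets, on the log2 scale; dashed lines mark 3-fold, coloured points are the 319 probe sets past the threshold and open circles the 97 probe sets of the immune receptor (NLR) list. The 211 blue points below the diagonal reach further from it than the 108 orange points above.

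The strongest decreases were genes with a clear signal in Col-0 and a low signal in Fe-1. AT1G35612, which the gene table lists as a pseudogene, was at 11.02, 10.56 and 10.75 in Col-0 and 4.19, 4.26 and 4.19 in Fe-1 (log2), 94.5-fold lower (log2 difference -6.56 ± 0.11 (SE, n = 3 against 3), adjusted p = 1.35e-07). AT3G43740 was at 9.99, 9.80 and 9.78 in Col-0 and 3.65, 3.44 and 3.53 in Fe-1, 79.5-fold lower (adjusted p = 9.73e-08). The Fe-1 arrays of both genes lay close together and under the lower quartile, so these signals were at the floor of the array and the fold depends on that floor. AT5G49440 was at 11.44, 11.56 and 11.28 in Col-0 and 5.93, 5.70 and 5.88 in Fe-1 (log2 difference -5.59, adjusted p = 1.35e-07), and AT2G22425 was at 10.83, 10.79 and 10.68 in Col-0 and 5.95, 5.85 and 5.46 in Fe-1 (log2 difference -5.01, adjusted p = 7.73e-07). Both kept a signal above the quartile in Fe-1. ZW9, a gene for a protein with a MATH domain, was at 8.47, 8.26 and 9.01 in Col-0 and 3.56, 3.43 and 3.70 in Fe-1 (log2 difference -5.02, adjusted p = 3.49e-06). CCL, whose short-lived transcript follows the circadian clock, was at 9.23, 9.85 and 10.25 in Col-0 and 4.89, 5.30 and 5.25 in Fe-1 (log2 difference -4.63, adjusted p = 2.20e-05), with the widest Col-0 range among these genes after THI2.2. THI2.2, which encodes a thionin, a small antimicrobial peptide, was at 9.61, 9.25 and 10.35 in Col-0 and 5.37, 5.05 and 5.66 in Fe-1 (log2 difference -4.38, adjusted p = 5.20e-05). The 12 largest decreases with 1 gene name were completed by the receptor gene AT4G19500, described below with its family, and by AT4G20480, AT5G56380, AT4G02540 and AT1G23960, with log2 differences from -4.78 to -4.52. Loci given by number only have no symbol in the tables used here, and no role is given for them.

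The largest increase was also in a gene listed as a pseudogene. AT3G47320 was at 6.22, 6.13 and 5.93 in Col-0 and 12.04, 12.13 and 12.11 in Fe-1, 63.8-fold higher in Fe-1 (log2 difference 6.0 ± 0.09 (SE, n = 3 against 3), adjusted p = 9.73e-08). A probe set for nad1, a mitochondrial gene for a subunit of respiratory complex I, followed with a log2 difference of 5.16 and is described below with the other probe sets of that gene. AT5G15360 was at 5.55, 5.24 and 5.56 in Col-0 and 10.46, 10.44 and 10.46 in Fe-1 (log2 difference 5.0, adjusted p = 2.18e-07). AT5G26970 was at 5.89, 5.90 and 5.88 in Col-0 and 10.21, 9.87 and 9.83 in Fe-1 (log2 difference 4.08, adjusted p = 7.82e-07). In each of these genes the arrays of one accession lay close together, and the difference was many times their spread. scpl44, a member of the serine carboxypeptidase-like family, was at 6.12, 6.0 and 5.79 in Col-0 and 9.95, 10.04 and 9.76 in Fe-1 (log2 difference 3.94, adjusted p = 8.59e-07). ATPMEPCRB, a pectin methylesterase that modifies cell wall pectin, was at 5.03, 5.51 and 4.87 in Col-0 and 8.95, 9.07 and 8.64 in Fe-1 (log2 difference 3.75, adjusted p = 1.39e-05). AT5G24240 (log2 difference 3.29, adjusted p = 8.55e-07), AT1G58025 (log2 difference 3.15, adjusted p = 2.05e-05) and AT2G07773 (log2 difference 3.01, adjusted p = 3.67e-05) also had tight replicates, whereas AT4G12890, AT5G47350 and AT4G15750 had Fe-1 arrays that lay far apart and are treated below. The plot of the largest changes by array shows both kinds. The AT2G07773 probe set is one that may cross-hybridise with other transcripts.

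**Figure D2:**
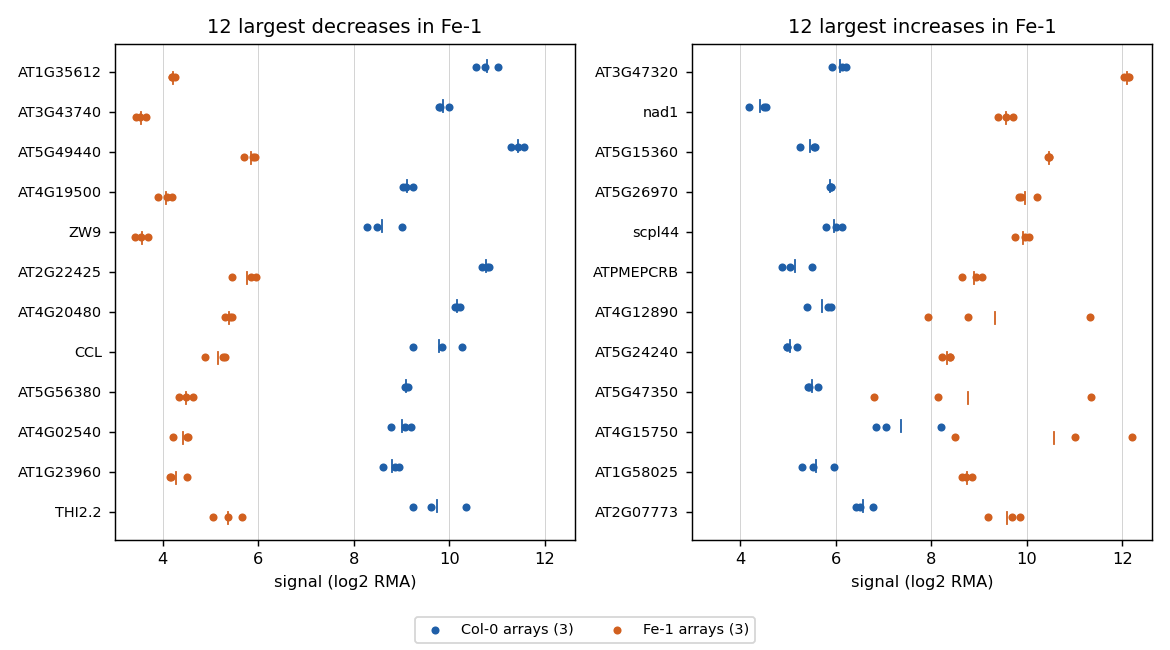
Signal (log2) on each of the 3 Col-0 arrays (blue) and 3 Fe-1 arrays (orange) for the 12 largest decreases (left) and the 12 largest increases (right); short lines mark the mean of each accession. Within each gene the 2 colours do not overlap, and the Fe-1 arrays of AT4G12890, AT5G47350 and AT4G15750 spread over a wide range.

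Among the genes past 3-fold that carry a descriptive symbol, these decreases were chosen here after their values were seen. ALDH6B2, methylmalonate semialdehyde dehydrogenase of branched-chain amino acid breakdown, was at 11.75, 11.75 and 11.83 in Col-0 and 8.98, 8.87 and 8.52 in Fe-1, 7.95-fold lower (adjusted p = 6.16e-06). COR15B, a cold-induced chloroplast protein that protects membranes during freezing, was at 9.33, 9.17 and 9.30 in Col-0 and 7.11, 6.93 and 6.73 in Fe-1, 5.07-fold lower (adjusted p = 1.15e-05). QQS, an orphan gene that affects the balance of starch and protein, was at 5.98, 6.47 and 6.97 in Col-0 and 4.07, 4.12 and 4.04 in Fe-1, 5.26-fold lower (adjusted p = 0.000278). In each of these genes every Col-0 array stood well above every Fe-1 array. UGT88A1, a UDP-glycosyltransferase (log2 difference -2.35, adjusted p = 2.59e-05), TET15, a tetraspanin (log2 difference -1.96, adjusted p = 4.35e-06), PIFI, a chloroplast protein named for its effect on chlorophyll fluorescence after illumination (log2 difference -1.72, adjusted p = 9.32e-05), and SRX, the sulfiredoxin that reactivates peroxiredoxins (log2 difference -1.70, adjusted p = 3.72e-05), were lower as well.

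The increases with a symbol were chosen in the same way. XIE, a class XI myosin that moves organelles along actin, was at 5.16, 5.20 and 5.33 in Col-0 and 7.68, 7.79 and 7.87 in Fe-1, 5.87-fold higher (adjusted p = 1.74e-06). XTH19, a xyloglucan endotransglucosylase that cuts and rejoins wall polymers, was at 9.15, 9.26 and 8.61 in Col-0 and 11.40, 11.22 and 11.10 in Fe-1, 4.71-fold higher (adjusted p = 0.00013). HOS3-1, which encodes an enzyme of the ELO family for very long fatty acids, was at 6.08, 6.46 and 6.23 in Col-0 and 8.22, 8.22 and 8.42 in Fe-1 (log2 difference 2.03, adjusted p = 2.61e-05). These 3 genes had no Fe-1 array within 1 log2 unit of a Col-0 array. TRY, a small MYB protein of trichome and root hair patterning, was at 8.62, 8.45 and 7.41 in Col-0 and 10.10, 9.96 and 10.08 in Fe-1 (log2 difference 1.89, adjusted p = 0.00264), and Col-0 replicate 3 was lower than the other Col-0 arrays. RALFL33, a signalling peptide of the RALF family, was 3.21-fold higher (adjusted p = 1.89e-05), SEC1B, a Sec1 protein of vesicle fusion, 3.1-fold (adjusted p = 5.69e-05) and LOJ, a pentatricopeptide repeat protein, 3.13-fold (adjusted p = 0.00013). SQN, the cyclophilin 40 that assists ARGONAUTE1 and the study's candidate modifier of ZLL, was at 5.87, 6.08 and 6.06 in Col-0 and 8.63, 8.61 and 8.70 in Fe-1 on one probe set, 6.26-fold higher (adjusted p = 1.35e-06). Its other probe set was below the lower quartile on every array, at 3.60, 3.74 and 3.68 in Col-0 and 3.72, 3.68 and 3.83 in Fe-1 (log2 difference 0.07, adjusted p = 0.516).

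Immune receptors of the NLR class, intracellular proteins with a nucleotide-binding domain and leucine-rich repeats that detect pathogen effectors, formed the largest of the lists. Of 159 loci listed, 96 were measured with 97 probe sets, and 26 were lower (26.8%), 10 higher (10.3%) and 61 not called at any fold, where 11.4% of all probe sets were lower and 17.8% higher, with a median log2 difference of -0.07 against 0.06 over all probe sets. Past 3-fold, 9 members (9.28%) were lower and 0 higher, where 0.928% and 0.475% of all probe sets were lower and higher at that fold. AT4G19500 was at 9.24, 9.02 and 9.08 in Col-0 and 4.20, 3.89 and 4.10 in Fe-1, 33.1-fold lower (adjusted p = 2.31e-07). AT3G44630 was at 8.84, 8.82 and 8.98 in Col-0 and 4.98, 4.62 and 4.94 in Fe-1, 16.4-fold lower (adjusted p = 8.55e-07). CSA1, a receptor named for its role in constitutive shade avoidance, was at 7.36, 7.61 and 8.21 in Col-0 and 4.96, 4.91 and 5.04 in Fe-1, 6.77-fold lower (adjusted p = 9.77e-05). All 3 genes had Fe-1 signals near or below the lower quartile of the arrays. Of the 9, 7 had an Fe-1 mean below 4.92, so the folds of those 7 depend in part on the array floor. AT5G18360 was at 7.06, 6.97 and 7.52 in Col-0 and 4.42, 4.37 and 4.56 in Fe-1 (log2 difference -2.74, adjusted p = 2.20e-05). AT1G72840, AT1G72850 and AT1G72860, from one cluster on chromosome 1, had log2 differences of -2.56, -2.12 and -1.79, AT4G19510, the neighbour of AT4G19500, had -2.84, and AT3G46730 had -1.87. The largest increases were AT4G12010 at 5.95, 6.10 and 5.96 in Col-0 and 7.18, 7.12 and 7.26 in Fe-1 (log2 difference 1.18, adjusted p = 5.82e-05) and AT5G58120 at 4.47, 4.23 and 4.74 in Col-0 and 5.54, 5.85 and 5.23 in Fe-1 (log2 difference 1.06, adjusted p = 0.00419).

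The receptors were weakly read on the whole: 52 of the 97 probe sets (53.6%) had both means below 4.92, compared with 23.0% of all probe sets. The decreases lay on chromosomes 1, 3, 4 and 5, with 8, 3, 5 and 10 called members, and the 4 members on chromosome 2 were not called. The single arrays of the other accessions split gene by gene. For AT4G19500 the arrays of Ler-0, Ts-1 and Van-0 lay at 4.27, 4.46 and 4.13 with Fe-1, and those of Nw-0 and Bay-0 at 9.07 and 8.71 with Col-0. For AT3G44630 all 5 lay between 4.93 and 5.60, near Fe-1, and for AT1G72840 only Bay-0 and Ts-1 did, at 4.55 and 4.82. The count of decreases ranged from 21 to 27 when 1 array was left out. The count of increases fell to 5 without Col-0 replicate 3 and 6 without Fe-1 replicate 3, and to 6 when the lowest 25% of probe sets were left out.

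**Figure D3:**
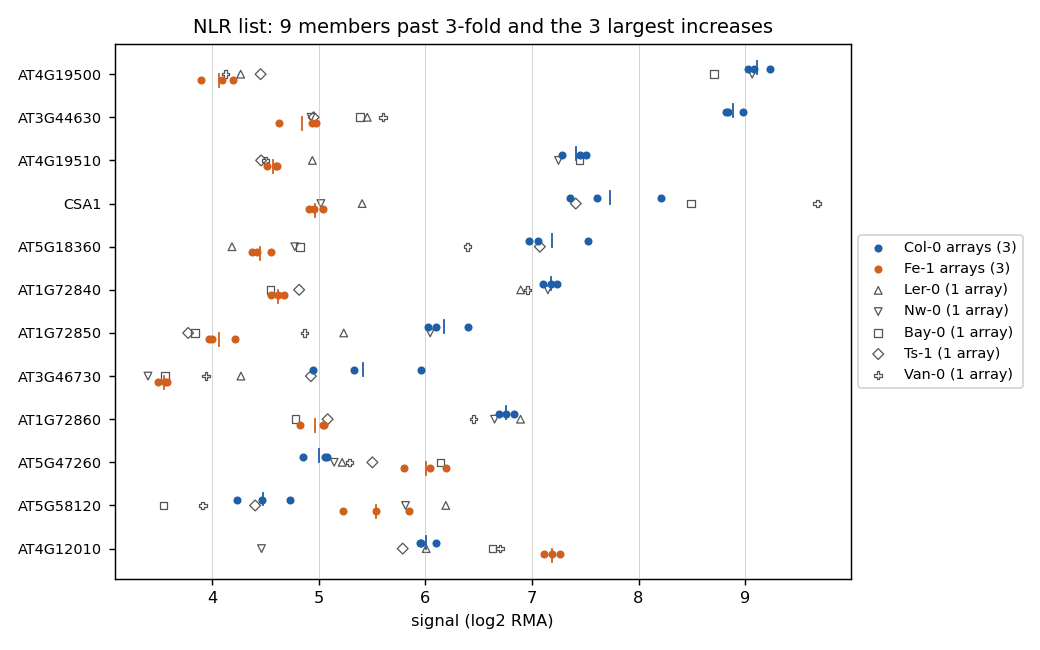
Signal (log2) of the 9 NLR genes past 3-fold and of the 3 genes with the largest increases, on the 3 Col-0 arrays (blue), the 3 Fe-1 arrays (orange) and the single arrays of the 5 other accessions (open grey symbols); short lines mark the means of Col-0 and Fe-1. The grey symbols fall near Col-0 for some genes and near Fe-1 for others, and AT3G44630 has all 5 near Fe-1.

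The other gene lists held few measured members, because many loci have no single gene name in the platform annotation. Of 40 loci for shoot meristem and embryo patterning 5 were measured, and 3 were higher and 0 lower, where 17.8% of all probe sets were higher and 11.4% lower, a split that depended on the scaling. RBL, the gene REBELOTE of floral meristem termination, was at 9.69, 9.33 and 9.50 in Col-0 and 10.26, 10.17 and 10.08 in Fe-1 (log2 difference 0.67, adjusted p = 0.00312). POL, a phosphatase that promotes stem cell identity, was at 9.48, 9.74 and 9.45 in Col-0 and 10.09, 9.90 and 9.99 in Fe-1 (log2 difference 0.44, adjusted p = 0.0132). BBM had a log2 difference of 0.29 (adjusted p = 0.0348), and its call was lost without any 1 array other than Fe-1 replicate 2 (adjusted p = 0.0585 to 0.104), and after median centring. CLV3, the stem cell peptide, was at 5.36, 5.38 and 5.88 in Col-0 and 5.27, 5.33 and 5.25 in Fe-1 (adjusted p = 0.204), and ULT1 had a difference of 0.00. Of 25 loci of the small RNA pathway 5 were measured, and SQN was the 1 called. The HD-ZIP III gene PHV, a target class of that pathway, had a log2 difference of 0.17 (adjusted p = 0.123). The seed and tissue lists had no called member: DFR and BAN of the seed coat, AGL62 and IKU2 of the endosperm, OLEO3 of 26 maturation and storage loci, and GI of 13 flowering time loci. DFR and BAN were called in some other fits, which are given below.

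Of 42 photosynthesis loci 8 were measured, and 3 were lower, 0 higher and 5 not called at any fold (37.5% called, against 29.3% of all probe sets), with a median log2 difference of -0.19. LHCB4.2, an antenna protein of photosystem II, was at 12.60, 12.66 and 12.80 in Col-0 and 12.08, 12.14 and 12.19 in Fe-1 (log2 difference -0.55, adjusted p = 0.00205). PSAE-1, a photosystem I subunit, was at 13.04, 13.16 and 13.16 in Col-0 and 12.84, 12.78 and 12.74 in Fe-1 (log2 difference -0.33, adjusted p = 0.0109). The groups did not overlap in either gene, and the differences were small beside those above. PSBW of photosystem II (log2 difference -0.30, adjusted p = 0.028) lost its call without Col-0 replicate 2 or 3 or without Fe-1 replicate 2 or 3 (adjusted p = 0.0654 to 0.0867). Of 33 glucosinolate loci 6 were measured, 1 higher and 3 lower (66.7% called). AOP1 of the side-chain locus was at 7.45, 7.65 and 7.39 in Col-0 and 8.65, 8.51 and 8.54 in Fe-1 (log2 difference 1.07, adjusted p = 0.000199), and UGT74B1, which glycosylates the core structure, was at 8.61, 8.30 and 8.60 in Col-0 and 7.63, 7.62 and 7.74 in Fe-1 (log2 difference -0.83, adjusted p = 0.000936). The transporter gene GTR2 (log2 difference -0.69, adjusted p = 0.0152) and BCAT4 of chain elongation (log2 difference -0.95, adjusted p = 0.0458) were called over all arrays, and without Col-0 replicate 3 neither was (adjusted p = 0.0562 and 0.0799), leaving 1 decrease. Leaving out Col-0 replicate 1 gave 2 increases, and BCAT4 was also lost without Col-0 replicate 1 or Fe-1 replicate 2 or 3. In the list of 13 heat shock loci, 2 of 3 measured genes, AT2G29500 (log2 difference -1.0, adjusted p = 0.0024) and AT1G53540 (log2 difference -0.74, adjusted p = 0.0089), were lower. Over all probe sets 11.4% were lower. With an ordinary t statistic AT1G53540 was not called (adjusted p = 0.0714). The remaining gene, ATHSP22.0, lay below the lower quartile in both accessions and was not called.

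Of 13 loci for defence peptides and pathogenesis-related proteins 8 were measured and 3 were lower (37.5% called, against 29.3% of all probe sets). Beside THI2.2, these were the defensin genes PDF1.4 (log2 difference -0.47, adjusted p = 0.0165) and LCR69 (log2 difference -0.39, adjusted p = 0.0183), and THI2.2 was the 1 that stayed called without Col-0 replicate 2, Col-0 replicate 3 or Fe-1 replicate 2. LCR69 was lost without Fe-1 replicate 1 too. THI2.1, the other thionin gene, was at 4.93, 5.16 and 5.34 in Col-0 and 5.63, 8.80 and 5.38 in Fe-1 (log2 difference 1.46, adjusted p = 0.222), with 1 Fe-1 array far above the rest. Lists with 1 measured gene gave PRL, the MCM7 helicase subunit of DNA replication, at 10.97, 10.87 and 11.01 in Col-0 and 10.35, 10.29 and 10.24 in Fe-1 (log2 difference -0.65, adjusted p = 0.000686), and, for auxin, DNA methylation and wounding in turn, YUC4 (log2 difference 0.45, adjusted p = 0.0179), DME (log2 difference 0.34, adjusted p = 0.0211) and STZ (log2 difference 0.56, adjusted p = 0.0162). The call of PRL held without each array in turn. YUC4 lost it without Col-0 replicate 1 or 3 or without Fe-1 replicate 1 or 2, DME without Col-0 replicate 2 or 3 or without Fe-1 replicate 1 or 3, and STZ without Col-0 replicate 1 or Fe-1 replicate 2 or 3. DME had 2 further probe sets that were not called.

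Gene families were taken from symbols, and 15 had at least 5 probe sets. Their called shares at any fold stand against 29.3% of all probe sets, 17.8% higher and 11.4% lower. Of 51 UDP-glycosyltransferases, which attach sugars to hormones and specialised metabolites, 6 were higher and 6 lower (23.5% called), among them UGT88A1 at 10.11, 10.20 and 10.25 in Col-0 and 7.93, 8.04 and 7.55 in Fe-1 and UGT73B4 (log2 difference -0.73, adjusted p = 0.00126). Of 14 glutathione S-transferases, which conjugate toxic compounds, 5 were higher and 3 lower (57.1% called). GSTU27 was at 8.85, 8.44 and 8.37 in Col-0 and 10.29, 10.09 and 10.41 in Fe-1, 3.27-fold higher (adjusted p = 0.000205), and GSTU21 was at 4.82, 5.03 and 4.77 in Col-0 and 6.86, 6.67 and 5.97 in Fe-1, 3.09-fold higher (adjusted p = 0.00145). GSTU28 lay on the other side, 1.67-fold lower (adjusted p = 0.00377), so the family moved both ways. Of 9 plant U-box ubiquitin ligases 4 were higher and 1 lower (55.6% called). PUB22, which dampens immune signalling, was at 4.77, 5.29 and 5.05 in Col-0 and 6.19, 6.58 and 6.24 in Fe-1 (log2 difference 1.30, adjusted p = 0.000898), and PUB26 was at 7.19, 7.37 and 6.96 in Col-0 and 8.51, 8.39 and 8.38 in Fe-1 (log2 difference 1.25, adjusted p = 0.000247). Of 8 cellulose synthase and cellulose synthase-like genes 2 were higher and 1 lower (37.5% called). CSLC12 of the xyloglucan synthase group was at 6.41, 6.46 and 6.37 in Col-0 and 5.34, 5.62 and 5.49 in Fe-1 (log2 difference -0.93, adjusted p = 0.000316), while its relatives ATCSLC08 and CSLC6 had log2 differences of 0.53 and 0.50. The counts for these 4 families stayed within 1.5 times the value given when any 1 array was left out.

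In other families the small counts depended on single arrays. Of 29 serine carboxypeptidase-like genes 2 were higher and 5 lower (24.1% called), and leaving out Col-0 replicate 1, Col-0 replicate 3 or Fe-1 replicate 2 left 2 decreases, Fe-1 replicate 1 left 3, and any 1 array but Fe-1 replicate 1 left 1 increase. scpl44 stayed called throughout. Of 24 cytochrome P450 genes 2 were higher and 2 lower (16.7% called), with 1 decrease without Col-0 replicate 1 or any 1 Fe-1 array. The neighbouring family members CYP71B25, at 4.70, 4.84 and 4.64 in Col-0 and 6.07, 6.13 and 6.69 in Fe-1 (log2 difference 1.57, adjusted p = 0.000489), and CYP71B26, at 6.22, 6.03 and 6.30 in Col-0 and 4.77, 5.12 and 5.14 in Fe-1 (log2 difference -1.17, adjusted p = 0.000491), went in opposite directions. Of 44 MADS box probe sets, for transcription factors that control organ identity and timing, 4 were higher and 2 lower (13.6% called), with 2 increases without Col-0 replicate 2 or Fe-1 replicate 1 or 3. AGL18, which delays flowering, was at 8.30, 8.25 and 8.37 in Col-0 and 8.74, 9.47 and 9.19 in Fe-1 (log2 difference 0.83, adjusted p = 0.00919). Of 22 bZIP transcription factor genes 6 were higher and 1 lower (31.8% called), with 3 increases without Col-0 replicate 1 or 3 and 0 decreases without Col-0 replicate 3, Fe-1 replicate 2 or Fe-1 replicate 3. BZIP34 was at 8.63, 8.56 and 8.29 in Col-0 and 9.31, 9.14 and 9.29 in Fe-1 (log2 difference 0.75, adjusted p = 0.00192). Of 7 WRKY genes, which act in defence, 2 were higher and 1 lower (42.9% called). WRKY22 was at 8.38, 8.25 and 7.70 in Col-0 and 9.43, 9.38 and 9.48 in Fe-1 (log2 difference 1.32, adjusted p = 0.00115), and without any 1 array other than Fe-1 replicate 1 it was the 1 increase left.

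3 more families act on the cell wall, beside the cellulose synthase family given above (37.5% called). The called shares of these 3 lay between 21.1% and 33.3%, against 29.3% of all probe sets. Of 10 xyloglucan endotransglucosylase genes 3 were higher and 0 lower (30% called), and 1 was higher without Col-0 replicate 2, while 1 was lower without Col-0 replicate 3 or Fe-1 replicate 1. XTH19 held in each of these fits. Of 6 pectin methylesterase and inhibitor genes 2 were higher (33.3% called), and ATPMEPCRB was the 1 call left without any 1 array other than Fe-1 replicate 1. Of 19 expansins 1 was higher and 3 lower (21.1% called), EXPA21 (log2 difference -0.57, adjusted p = 0.0113) among them, with 0 increases without Col-0 replicate 1, Fe-1 replicate 2 or Fe-1 replicate 3 and 1 decrease without Fe-1 replicate 2. The remaining families had called shares below the 29.3% of all probe sets: 1 of 10 peroxidase genes higher, 3 higher and 1 lower of 16 ribosomal protein genes, and 1 higher and 2 lower of 15 defensin-like genes. The peroxidase call was lost without any 1 array other than Fe-1 replicate 3. Leaving out replicate 2 or 3 of Col-0 or replicate 1 or 2 of Fe-1 left 1 ribosomal increase. The called ribosomal genes, rps16, rpl36, rpl14 and rps14, are all plastid-encoded. In the defensin-like genes 0 increases were left without Col-0 replicate 1 or 3 and 2 were found without Fe-1 replicate 1, and 0 decreases were left without Col-0 replicate 2, Col-0 replicate 3 or Fe-1 replicate 2 and 1 without Fe-1 replicate 1.

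Some increases came with Fe-1 arrays that disagreed among themselves. The spread within an accession was small for most probe sets, with a median SD of 0.097 in Fe-1 and 0.103 in Col-0, but 60 probe sets had an SD above 1 in Fe-1 and 4 in Col-0. Past 3-fold, 8 probe sets had an SD above 1 in Fe-1, and a decrease was among them. It has no gene name and was at 11.81, 11.98 and 12.11 in Col-0 and 9.50, 9.04 and 5.86 in Fe-1 (log2 difference -3.83, adjusted p = 0.0125). DELTA-VPE, a protease of the inner seed coat layers, was at 7.49, 8.56 and 7.93 in Col-0 and 8.82, 11.74 and 10.09 in Fe-1 (log2 difference 2.22, adjusted p = 0.0398). AT4G12890 was at 5.40, 5.90 and 5.83 in Col-0 and 7.94, 11.31 and 8.77 in Fe-1 (log2 difference 3.63, adjusted p = 0.01), AT5G47350 at 5.43, 5.63 and 5.43 in Col-0 and 6.81, 11.34 and 8.14 in Fe-1 (log2 difference 3.26, adjusted p = 0.042) and AT4G15750 at 6.83, 8.20 and 7.05 in Col-0 and 8.49, 12.19 and 11.01 in Fe-1 (log2 difference 3.20, adjusted p = 0.0274). In these 4 genes Fe-1 replicate 2 was the highest and Fe-1 replicate 1 the lowest of the Fe-1 arrays, and Col-0 replicate 2 was the highest Col-0 array. The seed coat markers had the same order. BAN, anthocyanidin reductase, was at 4.67, 5.95 and 5.0 in Col-0 and 5.07, 8.77 and 7.40 in Fe-1 (log2 difference 1.87, adjusted p = 0.138). DFR, dihydroflavonol reductase, was at 5.55, 6.16 and 5.50 in Col-0 and 5.84, 9.51 and 7.53 in Fe-1 (log2 difference 1.89, adjusted p = 0.117). Among the single arrays, Van-0 was at 7.61 for BAN and 7.43 for DFR, and Ler-0 at 5.26 and 7.97. Nw-0, Bay-0 and Ts-1 lay between 4.72 and 5.05 for BAN and between 5.28 and 6.33 for DFR. Of 19 seed coat loci BAN and DFR were the 2 measured, and their part in the increases was not tested. CHIL, a chalcone isomerase-like protein of flavonoid synthesis, had another order, with 7.23, 7.13 and 7.08 in Col-0 and 8.74, 9.86 and 10.06 in Fe-1 (log2 difference 2.41, adjusted p = 0.00127) and every Fe-1 array above every Col-0 array. AT2G30810 was at 6.87, 6.06 and 6.99 in Col-0 and 8.21, 10.25 and 9.25 in Fe-1 (log2 difference 2.60, adjusted p = 0.00642), and AT1G47400, with again another order, at 3.69, 3.96 and 3.61 in Col-0 and 6.32, 4.51 and 7.55 in Fe-1 (log2 difference 2.38, adjusted p = 0.0301). On Fe-1 replicate 1 alone, set against the Col-0 mean and given as values with no test, BAN and DFR differed by -0.14 and 0.10, DELTA-VPE by 0.82, AT4G15750 by 1.13, AT5G47350 by 1.31, AT4G12890 by 2.23 and CHIL by 1.59. With 1 array left out, DELTA-VPE lost its call without any Col-0 array or Fe-1 replicate 3 (adjusted p = 0.0585 to 0.123), AT5G47350 without the same arrays, AT4G15750 without Col-0 replicate 1 or 3 or without Fe-1 replicate 2 or 3, and AT1G47400 without any array but Fe-1 replicate 2. BAN and DFR passed without Fe-1 replicate 1 (adjusted p = 0.00736 and 0.0116). With all arrays kept and the replicate number added to the limma fit, BAN passed as well (log2 difference 1.87, adjusted p = 0.0315).

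**Figure D4:**
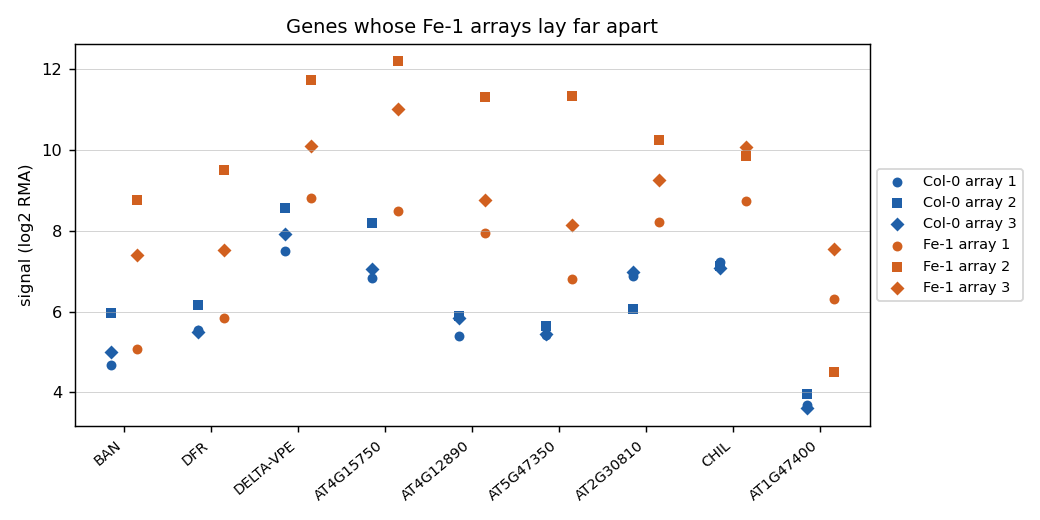
Signal (log2) of the seed coat markers BAN and DFR and of 7 genes past 3-fold on each of the 3 Col-0 arrays (blue) and 3 Fe-1 arrays (orange), with a marker shape for each replicate. From BAN to AT2G30810 the Fe-1 arrays stand in one order, replicate 2 highest and replicate 1 lowest, which CHIL and AT1G47400 do not share. Col-0 replicate 2 is also the highest Col-0 array in these genes, except in AT2G30810.

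Genes read by several probe sets gave a check within the arrays. Of 147 such genes, 74 had no probe set called at any fold, 45 had 1, and 28 had at least 2, which moved the same way in 21 and in opposite directions in 7. nad1 was the extreme case. 3 of its 7 probe sets passed 3-fold, one at 4.54, 4.49 and 4.18 in Col-0 and 9.71, 9.57 and 9.40 in Fe-1 (log2 difference 5.16, adjusted p = 4.97e-07), one at 4.59, 4.45 and 4.50 in Col-0 and 6.99, 7.07 and 7.01 in Fe-1 (log2 difference 2.51, adjusted p = 8.55e-07) and one at 9.11, 8.94 and 8.44 in Col-0 and 4.98, 4.43 and 4.62 in Fe-1 (log2 difference -4.16, adjusted p = 1.39e-05). In all 3 the 5 other accessions lay with Col-0: the first stood between 4.35 and 4.69 there, and the last between 8.31 and 9.18. The other 4 probe sets had log2 differences from -0.05 to 0.43 and were not called. nad1 is known for exons that lie apart in the mitochondrial genome and are joined by trans-splicing, so its probe sets need not read one primary transcript. AT3G53670 was at 7.12, 6.46 and 6.46 in Col-0 and 4.74, 4.69 and 4.43 in Fe-1 on one probe set and 9.39, 9.28 and 9.28 in Col-0 and 10.17, 10.11 and 9.83 in Fe-1 on the other (log2 differences -2.06 and 0.72). The remaining genes with opposite calls were AGL26, 2A6, AT1G06750, AT1G62880 and AT3G09470, each with 1 decrease (log2 difference -1.24 to -0.57) and 1 increase (0.23 to 0.44). The increase was lost in AT1G62880 without Fe-1 replicate 1, in AT3G09470 without Col-0 replicate 1 or 3 or without Fe-1 replicate 1 or 2, in AT1G06750 without any 1 array other than Col-0 replicate 2 and in AGL26 without any 1 array other than Col-0 replicate 3, and in 2A6 the decrease was lost without Col-0 replicate 2 or 3 or without Fe-1 replicate 3. Which probe set reflects the level of such a gene cannot be told apart from these values.

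The differences were spread over the genome. Of the probe sets with a chromosome, the share past 3-fold ranged from 1.22% on chromosome 1 to 1.63% on chromosomes 4 and 5. Both members of 4 pairs of adjacent genes passed, out of 5200 adjacent pairs measured. 2 pairs were receptor genes, AT4G19500 with AT4G19510 and AT1G72840 with AT1G72850. AT3G43280, at 4.46, 4.50 and 4.27 in Col-0 and 6.54, 6.29 and 6.65 in Fe-1, and AT3G43290, at 5.83, 5.66 and 5.60 in Col-0 and 8.47, 8.65 and 8.83 in Fe-1, were both higher (log2 differences 2.08 and 2.95). AT5G56370 and AT5G56380 were both lower (-2.18 and -4.61). Within each pair the genes moved the same way. By signal level, 202 of the 319 lay in the second quartile of mean signal, 9 in the lowest, 87 in the next and 21 in the highest. The quartiles were taken on the mean of both accessions, which a 3-fold difference lifts above the level of the lower accession. These counts therefore depend in part on the 3-fold limit. Pseudogenes passed 3-fold in 1.21% of 989 probe sets and protein-coding genes in 1.47%, whereas at any fold the shares were 6.57% and 30.4%.

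The 5 single arrays showed how private the differences were to Fe-1 or Col-0, as a description without a test. Each array was assigned to the nearer of the 2 accession means. Among the 108 increases, all 5 arrays lay on the Col-0 side in 20 probe sets and all 5 on the Fe-1 side in 9. AT3G47320, GSTU21, LOJ and CHIL were on the Fe-1 side in no other accession, and scpl44, HOS3-1 and SEC1B in all 5. Among the 211 decreases all 5 arrays lay on the Col-0 side in 31 and on the Fe-1 side in 32. ALDH6B2, TET15, PIFI and TBL23 had all 5 arrays nearer to Col-0, while AT1G35612, AT4G02540 and AT3G44630 had all 5 arrays nearer to Fe-1. The remaining 227 probe sets divided the 5 arrays. Over all probe sets past the threshold, Bay-0 was on the Fe-1 side most often, in 54 of 108 increases and 124 of 211 decreases. Ler-0 was on the Fe-1 side in 50 increases and 91 decreases, Nw-0 in 40 and 113, Ts-1 in 38 and 108, and Van-0 in 52 and 99. SQN was on the Fe-1 side in Ler-0, Ts-1 and Van-0, at 8.15, 9.44 and 9.03, and on the Col-0 side in Nw-0 and Bay-0, at 7.10 and 6.55. With a stricter rule that counts an array only within 0.25 of the difference from a mean, all 5 lay with Col-0 in 7 increases and 7 decreases and with Fe-1 in 1 and 20.

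**Figure D5:**
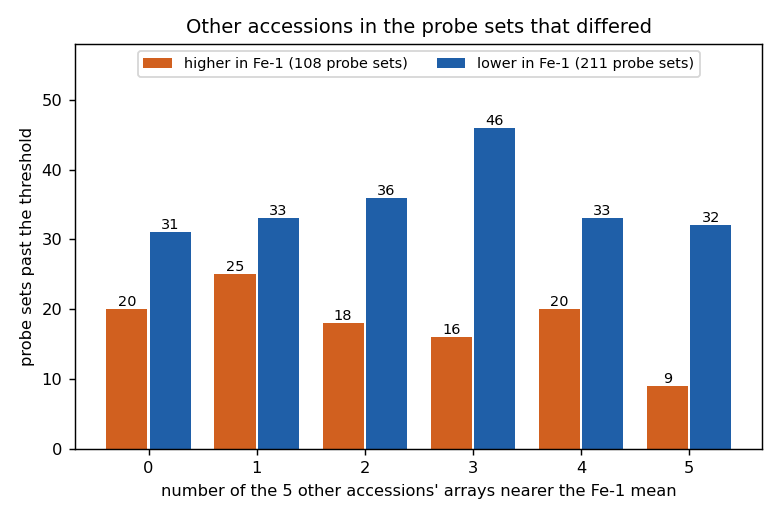
Number of probe sets past the threshold (vertical axis) by how many of the 5 other accessions' arrays lay nearer the Fe-1 mean than the Col-0 mean (horizontal axis), for the 108 increases (orange) and 211 decreases (blue). The bars at 0 count probe sets with all 5 arrays nearer Col-0 (20 and 31), and the bars at 5 those with all 5 nearer Fe-1 (9 and 32).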

How the data were processed

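Total RNA of dissected embryos was amplified, labelled and hybridised to ATH1 arrays, per the labels. The authors normalised the arrays with RMA (background correction, quantile normalisation, summary per probe set) and deposited log2 values, which were used as they stand; no source used here gives the RMA version or the chip definition.

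Apart from 64 controls, all 22746 probe sets entered the test, which used limma 3.58.1 in R 4.3.3 (functions lmFit, then eBayes) on the 3 Fe-1 and 3 Col-0 arrays, with Benjamini-Hochberg adjustment. Differences are Fe-1 minus Col-0, and p-values measure the spread between the arrays, which the labels call biological replicates. An exact permutation test of 3 against 3 cannot go below 0.10. The fit was tested on simulated data.

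Genes were named from the platform annotation: 13513 probe sets have 1 gene, 503 several and 8730 none; 13436 were matched to the TAIR10.1 table. Named genes are the 12 largest increases and decreases, up to 4 members per list or family by adjusted p, SQN, adjacent and opposing pairs, and those said to be added. The members, 16 lists and families were chosen with earlier results of these data known. Precision is limited by the number of arrays, for which no read depth exists. Alternatives changed the normalisation, filters, statistic, threshold, replicate block and arrays. Figures were drawn with matplotlib 3.10.9.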

Additional observations from a re-analysis of the deposited data

How the results depend on the processing

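The count past 3-fold was 319 and lay between 293 and 326 under other normalisations, filters, statistics, an unadjusted p, or Fe-1 replicate 1 alone (its spread comes from Col-0 only); 286 to 319 of the same probe sets were called again in each. With 2-fold in its place it was 910 (411 higher, 499 lower), and with a log2 limit of 1.5 it was 366. Leaving out 1 array gave 302 to 353 calls (93 to 136 higher, 209 to 226 lower). At any fold, against 6655, the count was 4977 to 5593 without 1 array (3015 to 3316 higher, 1962 to 2311 lower), 3921 with an ordinary t statistic (2394 higher, 1527 lower) and 2031 with Fe-1 replicate 1 alone (1112 higher, 919 lower). After median centring 2678 were higher and 3721 lower. The NLR list had 5 to 9 members higher and 21 to 27 lower without 1 array, 6 higher without the lowest 25% of probe sets, 2 higher and 17 lower with an ordinary t statistic, and 4 higher and 13 lower with Fe-1 replicate 1 alone. With the stricter rule for the other accessions, the counts on the Fe-1 side were 1 and 20 and on the Col-0 side 7 and 7.

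Whether the replicate numbers pair the samples was not settled. Deviations of same-numbered arrays correlated at 0.23, 0.04 and 0.11, but arrays with unlike numbers were not compared. With the replicate block 325 probe sets passed 3-fold (114 higher, 211 lower) and 6600 any fold (3990 higher, 2610 lower), and the NLR list had 10 members higher and 27 lower.

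Directions of uncalled named genes turned for AGL62 (-0.042 after median centring, and -0.060 to 0.16 when 1 array was left out), OLEO3 (-0.082 after median centring, and -0.0059 to 0.036 when 1 array was left out), the second SQN probe set (-0.025 after median centring) and BAN (-0.14 with Fe-1 replicate 1 alone). The cause of these changes was not tested. Signals near the array floor and poor probe match limit what a decrease shows.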

Other observations

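Plastid-encoded genes, which were not a list of their own, were read by 69 probe sets. They include the called genes of the ribosomal protein family above, rps16, rpl36, rpl14 and rps14, which are counted here again. At any fold 4 were higher and 8 lower in Fe-1, and 0 passed 3-fold. The share called at any fold was 17.4%, against 29.3% of all probe sets, with a median log2 difference of -0.07. The ribosomal protein gene rps16 was at 8.79, 8.67 and 8.16 in Col-0 and 9.40, 9.46 and 9.42 in Fe-1 (log2 difference 0.89, adjusted p = 0.0048, limma), and rps14 was at 7.62, 7.54 and 7.42 against 7.15, 7.16 and 7.13 (log2 difference -0.38, adjusted p = 0.0077). The counts depended on single arrays: 1 was higher without Col-0 replicate 2, Col-0 replicate 3, Fe-1 replicate 1 or Fe-1 replicate 2, and 4 were lower without Col-0 replicate 1, 5 without Col-0 replicate 2 or Fe-1 replicate 3.

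Of the 319 probe sets past 3-fold, 104 have no gene name in the annotation used here and 16 have several, so 199 could be named. The unnamed ones included 30 increases and 74 decreases, and the share past 3-fold was 1.19% without a name, 1.47% with 1 name and 3.18% with several.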
